A study of Mus musculus with 56 samples.

Results

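The circular RNAs described here are the catalogued ones of mouse liver: transcripts with an identifier of the form mmu_circ_ in the circRNA table of a restricted-feeding study, chosen by their values, which had to be above 0 in at least 28 of the 56 libraries. They number 332 of 504 catalogued circRNAs and of 2352 circRNAs listed, the rest of which are in no catalogue the table names. The members were thus selected on detection in the same libraries, so their breadth of detection is a description and no finding. With the same detection limit 799 uncatalogued circRNAs were kept, and all tests were run over the 1131 circRNAs together. The 56 livers were those of C57BL/6J females at 9 weeks of age, fed for 7 days in the day alone (daytime-restricted feeding, DRF) or in the night alone (nighttime-restricted feeding, NRF, the reference). All were kept under 12 h of light and 12 h of dark. Sampling ran every 4 h from ZT0 to ZT24, with 4 mice per regimen and time, where ZT (zeitgeber time) counts hours from lights on. No genetic change or drug was part of the design, and whole liver was sequenced, so fewer cells of a type and less RNA per cell cannot be told apart.

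A circular RNA is made when the spliceosome joins the end of an exon back to the start of the same or an earlier exon. Its reads are told from those of the linear transcript by the back-splice junction, which the linear form lacks. Having no free ends, circRNAs are resistant to exonucleases and are usually longer lived than the mRNA of their host gene, and some have been described to bind microRNAs or proteins. Inverted repeats in the flanking introns and RNA-binding proteins such as QKI favour circularisation, whereas ADAR and DHX9 act on the repeat duplexes. The identifiers were not matched here to host genes, positions or sequences, and the members are therefore described by identifier.

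Values are junction reads multiplied by the step of their library, which the authors deposited on a log2 scale and which are called scaled junction reads below. Each library held between 5305 and 18879 junction reads (median 11479), and 1 read was worth between 54.7 and 118 units. The lowest value above 0 was 2 reads, and what a listed 0 stands for is uncertain in some libraries, as described below. The members took 32.3% of all junction reads, 203816 of 631843. Of the 332 members, 67 were above 0 in every library, and 205 to 315 were above 0 in a single library. Detection followed depth: across the 56 libraries the number of members above 0 and the junction reads had a Spearman rho of 0.957, given as a description because both come from the same counts. The libraries with fewer than 6000 junction reads were 3, all of them NRF: ZT16 replicates 1 and 3 and ZT20 replicate 1.

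**Figure D1:**
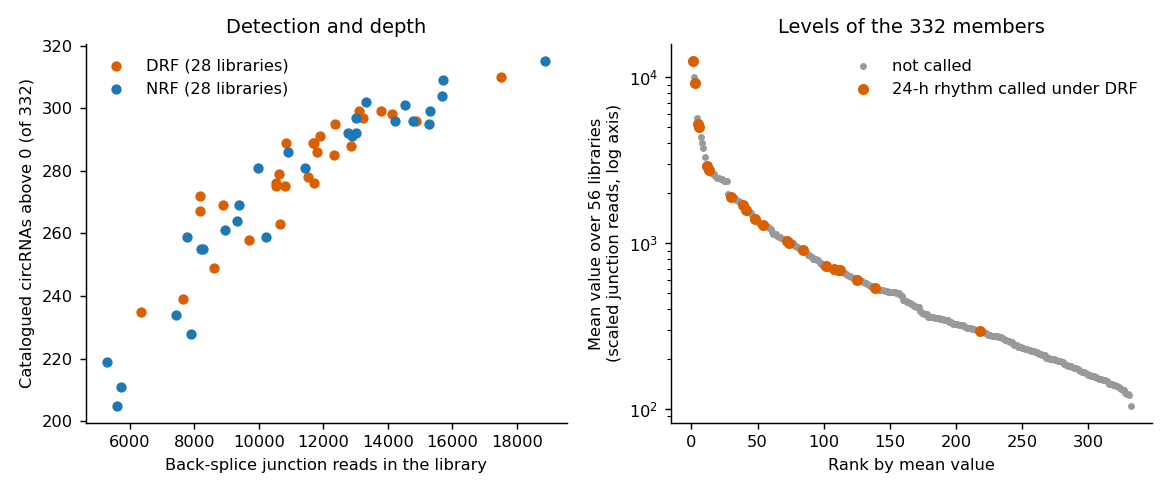
Left, the number of the 332 catalogued circRNAs above 0 in each library against the junction reads of that library, in DRF (orange) and NRF (blue). Right, the mean value of each member over 56 libraries (log axis, scaled junction reads) against its rank, with the 21 members called rhythmic under DRF in orange. Detection fell to between 205 and 219 members in the 3 libraries with fewer than 6000 reads, and most of the rhythmic members lay in the upper part of the ranking.

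Before the comparisons, 3 features of the libraries have to be stated. First, 12 members each had 1 listed 0 in a library where the other 55 libraries gave an expectation of at least 20 reads. At that expectation counting error alone would leave fewer than 2 reads with a probability of 4.33e-08. Some of these members, such as mmu_circ_0001516 (above 0 in 48 libraries), were at 0 in further libraries too. The clearest was mmu_circ_0001704, with 0 in NRF ZT12 replicate 4 against an expectation of 111 reads. Of these 12 zeros 11 were in NRF libraries, and 1 of them belonged to mmu_circ_0001516 at a time when it was low in every library. Among the uncatalogued circRNAs 52 such zeros, in libraries of both regimens, belonged to 9 circRNAs. Second, in NRF ZT8 replicate 4 a group of 28 values had been multiplied by a common 73.2, and none of them belonged to a member. Finally, NRF ZT12 replicates 1 and 2 lay far from replicates 3 and 4, and NRF ZT16 replicate 3 far from the rest of its group, in the rhythmic members described below. The counts of members called were recomputed without these libraries and with the isolated zeros as missing, and counts that moved are given below. Distances between the peak times of the regimens are given with the isolated zeros as missing, but not without these libraries.

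The most abundant members were a steep top of a long distribution. The 10 highest held 22.9% of the members' reads, 45 members held the upper 50% of them, and the highest mean was 120 times the lowest. mmu_circ_0001605 led with a mean of 12515 scaled junction reads (166 reads per library), followed by mmu_circ_0001704 with 10062 (133 reads) and mmu_circ_0001822 with 9184 (121 reads). The next were mmu_circ_0000635 at 5659, mmu_circ_0000057 at 5209 and mmu_circ_0001283 at 5044. mmu_circ_0000349 at 4371, mmu_circ_0001624 at 4044, mmu_circ_0001636 at 3727 and mmu_circ_0000735 at 3312 completed the 10. Of these 10, mmu_circ_0001605, mmu_circ_0001822, mmu_circ_0000057 and mmu_circ_0001283 were called rhythmic under DRF. The second most abundant did not pass for a rhythm under DRF, with a mean of 9977 ± 1574 (SD, n = 28) and an amplitude of 0.18 ± 0.05 on the log2 scale (SE, adjusted p = 0.0647, limma).

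Most members were much rarer. The median member had a mean of 429 scaled junction reads, which is 5.70 reads per library, against 270 and 3.57 reads for the uncatalogued circRNAs tested. At the edge of the detection rule, the 7 members above 0 in exactly 28 libraries had means between 123 and 181 (mmu_circ_0000044, for example, 140), and the 5 catalogued circRNAs above 0 in 27 libraries, left out by the rule, had means between 110 and 122, with mmu_circ_0000100 at the lower end. Spread between mice depended on level. The median within-group SD on the log2 scale was 1.12 in the 83 members with the fewest reads (1.41 to 3.13 per library) and 0.49 in the 83 with the most (12.2 to 166). For the 67 members above 0 in every library, the reads varied within groups by a median chi-square of 1.72 per degree of freedom, where counting error alone gives about 1. The value was under 1.5 for 19 and over 2 for 21 of them. It was highest at 7.59 for mmu_circ_0001605, the member with the most reads. The within-group SD of that member on the log2 scale was 0.35, against a median of 0.46 for the 67. Expected reads came from the library steps, which correct differences in junction reads in part. Leftover differences of that kind and spread between mice are not told apart here.

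The first question was which members oscillated over the day under each regimen. Under DRF, 21 of 332 members (6.33%) had a 24-h rhythm past an adjusted p of 0.05 by limma on a cosine fit over 28 libraries, against 4.42% of all circRNAs tested. Of these, 16 peaked in the light between 2.44 and 6.98 h and 5 in the dark between 15.3 and 16.3 h, with no peak between. Their amplitudes, which are the mean-to-peak distance on the log2 scale, ran from 0.38 to 2.07 (median 0.66). The calls lay mostly among members with many reads. In sets of 83 from the fewest to the most reads, 0, 1, 6 and 14 members were called. Without adjustment, 69 of the 332 members had a p under 0.05, against 16.6% of all circRNAs.

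Among the light-phase members, mmu_circ_0001605 carried the smallest error. Under DRF its libraries held 15075, 13183, 16456 and 14150 scaled junction reads at ZT0 and 8120, 9175, 10558 and 9390 at ZT12. The groups did not overlap, and the means stepped from 15286 ± 1869 (SD, n = 4) at ZT8 to 9311 ± 1000 at ZT12. The fit gave an amplitude of 0.38 ± 0.05 (SE) with a peak at 3.97 ± 0.48 h and an adjusted p of 1.44e-08 by limma.

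mmu_circ_0000057 and mmu_circ_0001283 moved over a wider range in the same direction. mmu_circ_0000057 averaged 6328 ± 763 (SD, n = 4) at ZT0 and 3483 ± 842 at ZT12 under DRF, with a peak at 3.43 ± 0.52 h (amplitude 0.53 ± 0.07, limma adjusted p = 3.47e-08). mmu_circ_0001283 averaged 7201 ± 840 at ZT8 and 3681 ± 1161 at ZT16, with a peak at 4.58 ± 0.51 h (amplitude 0.52 ± 0.08, limma adjusted p = 2.02e-07). In both, the highest and lowest groups did not overlap, and under NRF, where neither member was called, they did not overlap either. Such overlap is a description here and for the other rhythmic members, because they were called on these same values.

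The largest swings belonged to mmu_circ_0001516 and mmu_circ_0001774, which fell close to the limit of detection each day. Under DRF, mmu_circ_0001516 held 1305, 2057, 2966 and 2085 scaled junction reads at ZT0 (18, 22, 42 and 28 reads) and 0, 220, 0 and 229 at ZT12 (0, 3, 0 and 3 reads). All 4 libraries at ZT0 lay above all 4 at ZT12, with an amplitude of 2.07 ± 0.26 and a peak at 3.76 ± 0.46 h (limma adjusted p = 2.19e-06). mmu_circ_0001774 held 870, 1403, 1836 and 1117 at ZT0 and 214, 0, 0 and 0 at ZT12, where it was detected in 1 mouse of 4. Its amplitude was 1.44 ± 0.23 and its peak 2.59 ± 0.62 h (limma adjusted p = 2.29e-06). The other members of the light class, in order of adjusted p, were mmu_circ_0001350, mmu_circ_0000281, mmu_circ_0000301, mmu_circ_0000372, mmu_circ_0001333, mmu_circ_0001614, mmu_circ_0001431, mmu_circ_0000491, mmu_circ_0001271, mmu_circ_0000522 and mmu_circ_0000347, the last at an adjusted p of 0.0439.

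The 5 dark-phase members were low in the light. mmu_circ_0001822, next in abundance after mmu_circ_0001704, held 6885, 5423, 6921 and 7373 scaled junction reads at ZT0 under DRF and 10786, 13038, 11921 and 10462 at ZT16. These groups did not overlap, and the peak fell at 15.4 ± 0.51 h with an amplitude of 0.42 ± 0.06 (limma adjusted p = 1.44e-08). mmu_circ_0001447 rose from 1845 ± 335 (SD, n = 4) at ZT4 to 4671 ± 1377 at ZT12, and mmu_circ_0001311 from 1219 ± 315 at ZT0 to 2894 ± 556 at ZT16. mmu_circ_0000894 and mmu_circ_0000802 both had their highest mean at ZT20, at 2493 ± 435 and 1143 ± 407.

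**Figure D2:**
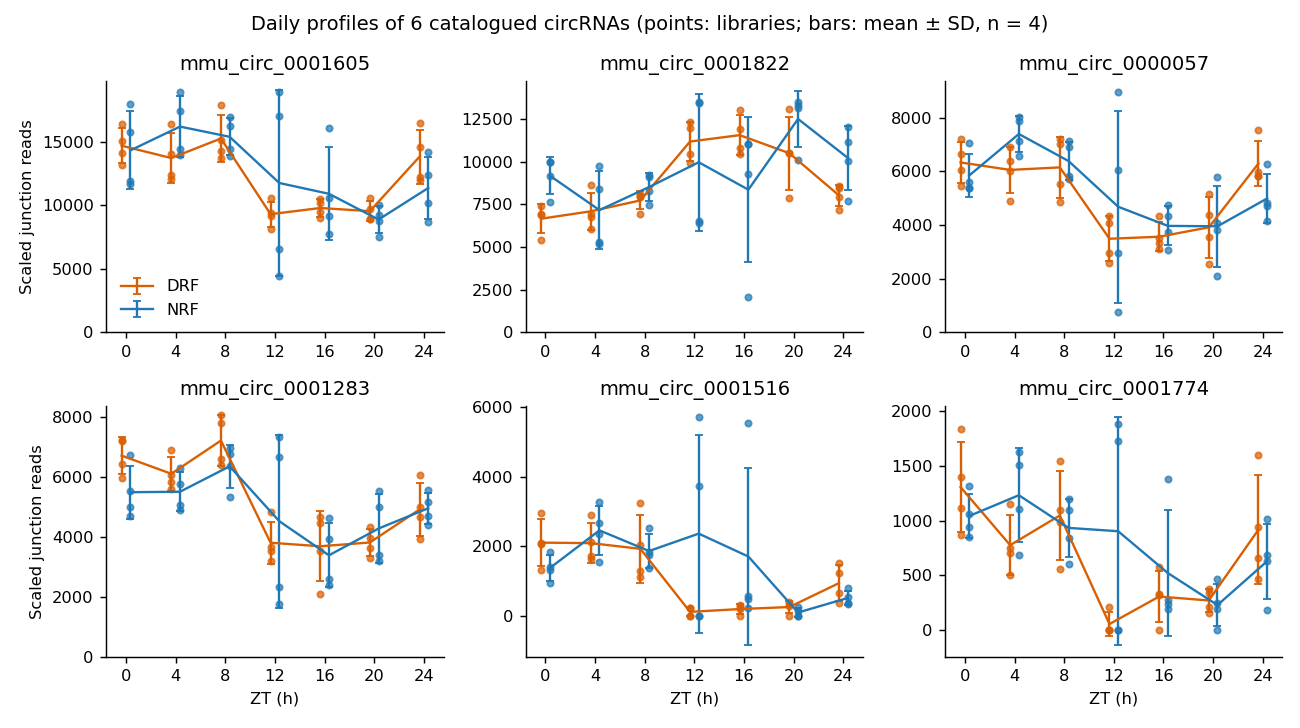
Scaled junction reads of the 6 members with the smallest adjusted p for a rhythm under DRF, plotted against ZT in hours (orange, DRF; blue, NRF). Points are libraries, lines join group means and bars are the SD of 4 libraries. Under DRF the 5 light-phase members dropped between ZT8 and ZT12 while mmu_circ_0001822 rose, and under NRF the ZT12 libraries lay in an upper and a lower pair.

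Under NRF no member passed the same test (0 of 332 by limma), against 0.531% of all circRNAs, and 41 members had an unadjusted p under 0.05, against 11.8% of all circRNAs. By limma-voom on the recovered reads 1 member passed, and 7 of all 1131 circRNAs. The 2 smallest p-values, which did not pass, belonged to mmu_circ_0000983 (amplitude 1.14 ± 0.30, peak 3.36 h) and mmu_circ_0000668 (amplitude 1.19 ± 0.32, peak 3.97 h), both with an adjusted p of 0.106 by limma. The count depended on the libraries used: it was 6 without ZT12, 3 without NRF ZT12 replicates 1 and 2, and 5 without the libraries numbered replicate 3. Of all 1131 circRNAs, 15, 17 and 12 passed in these settings. Members with an unadjusted limma p under 0.05 numbered 54 without NRF ZT16 replicate 3, and also 54 without NRF ZT12 replicates 1 and 2. The test of a difference in rhythm between the regimens also called 0 of 332 members and 0% of all circRNAs by limma, and 26 members had an unadjusted p under 0.05, against 8.66% of all. Limma-voom called 0 as well. The 2 smallest p-values for that difference, which did not pass, belonged to mmu_circ_0000498 (adjusted p = 0.171) and mmu_circ_0000621 (adjusted p = 0.26), by limma, with 2.05 and 3.21 reads per library.

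The members called rhythmic under DRF were therefore followed in the NRF libraries. These had no part in the DRF rhythm calls, although they counted towards the detection limit. The 21 are set below against all 332 members, which were not matched to them for reads. Of the 21, 10 had an unadjusted p under 0.05 under NRF, against 41 of all 332 members. The counts were 8 against 35 with values per total junction reads and 7 against 32 with median-of-ratios scaling. By limma-voom they were 12 against 38. The fitted peak under NRF lay within 4 h of that under DRF for 17 of the 21, between 4 and 8 h for 2 and at least 8 h away for 2, with a median distance of 2.47 h. For all 332 members, most of them without a rhythm, 150 lay within 4 h and the median distance was 4.40 h. In the light class 15 of 16 kept within 4 h. With the isolated zeros as missing, 18 of the 21 lay within 4 h and 1 at least 8 h away. The distances are not given without NRF ZT12 replicates 1 and 2 or NRF ZT16 replicate 3. mmu_circ_0001283 differed by 0.20 ± 1.06 h (SE), mmu_circ_0000057 by 0.91 ± 1.25 h, mmu_circ_0001605 by 1.27 ± 1.17 h, mmu_circ_0001774 by 2.18 ± 1.24 h and mmu_circ_0001516 by 2.55 ± 1.16 h. Of the 21 DRF peaks 12 lay between 0 and 4 h, and of the 21 NRF peaks 15 lay between 4 and 8 h. Over all 332 members 86 DRF peaks and 122 NRF peaks lay in those same windows. ZT0 and ZT24 share an angle in the fit. The mean log2 deviation of the light class under NRF was 0.40 ± 0.34 (SD, n = 4) at ZT0 but -0.13 ± 0.24 at ZT24. Under DRF it was 0.66 ± 0.16 and 0.38 ± 0.21. The 5 dark-phase members had a median fitted amplitude of 0.21 under NRF and of 0.52 under DRF, the regimen they were chosen on, and 1 of the 5 had an unadjusted p under 0.05.

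The 2 members with distances of at least 8 h were mmu_circ_0000301 at 9.85 h and mmu_circ_0000894 at 8.78 h, and each had 1 of the isolated zeros under NRF. With those zeros as missing, mmu_circ_0000301 peaked at 4.09 h under NRF, 0.79 h from its DRF peak, while mmu_circ_0000894 lay 10.6 h from its DRF peak with an NRF amplitude of 0.25. The SE of the distance was 5.88 h and 8.21 h with the zeros in place, so neither distance exceeded 2 SE.

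**Figure D3:**
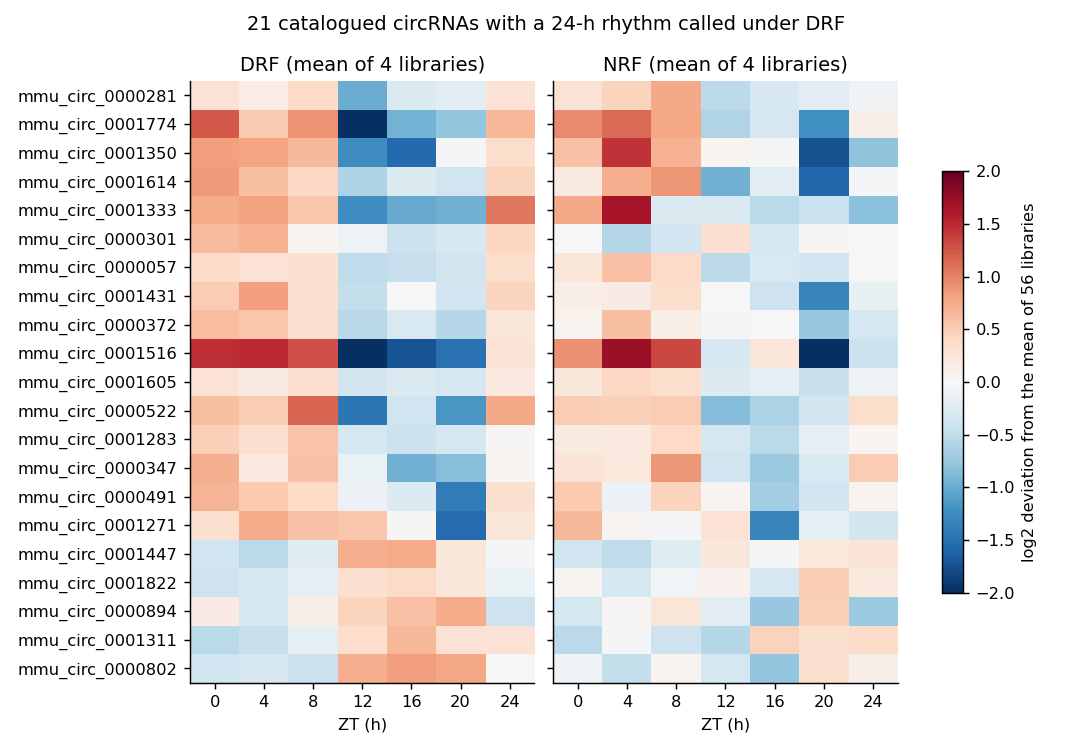
Log2 deviation of each of the 21 DRF-rhythmic members from its mean over 56 libraries, averaged over 4 libraries per group, by ZT in hours, with DRF on the left and NRF on the right. Rows are ordered by the DRF peak time. Under DRF the 16 light-phase rows are above their mean at ZT0, ZT4 and ZT8 and, with few exceptions, below it at ZT12, ZT16 and ZT20. Under NRF most of these rows are also above their mean at ZT0, ZT4 and ZT8.

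The NRF libraries of ZT12 and ZT16 differed among themselves in these members. At NRF ZT12, mmu_circ_0001605 held 17096 and 18965 scaled junction reads in replicates 1 and 2 (238 and 322 reads) and 4462 and 6569 in replicates 3 and 4 (53 and 71 reads). The upper pair lay above and the lower pair below all 4 DRF libraries of that time. mmu_circ_0001516 held 3735 and 5713 in the first pair and 0 in both libraries of the second. mmu_circ_0000057 held 6034, 8953, 758 and 2961 in replicates 1 to 4, and mmu_circ_0001283 held 7327, 6656, 1768 and 2313. The dark-phase mmu_circ_0001822 was split the other way, with 6537 and 6420 against 13470 and 13416.

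Over the whole light class, the mean log2 deviation of the 16 members was 0.92 and 1.18 in NRF ZT12 replicates 1 and 2 and fell to -1.91 and -1.28 in replicates 3 and 4. In 15 of the 16 members both of the first libraries lay above both of the last, whereas 105 of the 311 members not called rhythmic (33.8%) did so. Depth moved with this split, since the first pair held 12888 and 15315 junction reads and the last pair 7884 and 7421. With values divided by total junction reads the deviations were 0.81, 1.10, -1.75 and -1.09, and the order held in 14 of the 16 members and 81 of the 311. The clock genes of the gene table differed in how alike they were in the same 4 libraries. On the log2 scale of scaled counts Arntl, the clock activator also called Bmal1, lay between 1.05 and 1.34. At values this low the 1 added before the log understates differences. Dbp, a target of Arntl, held 5.55 and 5.93 in replicates 1 and 2 and 5.36 and 5.48 in replicates 3 and 4. The clock gene Nr1d1 held 4.29 and 4.998 in the first pair and 4.14 and 3.73 in the last. The clock gene Per2 was not ordered this way, with 5.67 in replicate 2 and 5.798 in replicate 4.

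At NRF ZT16 the library apart was replicate 3. There mmu_circ_0001516 held 5529 scaled junction reads (48 reads) against 235, 474 and 574 in the other libraries, and mmu_circ_0001774 held 1382 against 235, 271 and 191. mmu_circ_0001822 held 2074 there against 9301, 11029 and 11008. Replicate 3 was the highest of its group in 14 of the 16 light-class members, against 68 of the 311 not called rhythmic (21.9%). It was also the shallowest library of all, with 5305 junction reads. Its Arntl value of 5.04 lay among the 4.87, 4.94 and 5.43 of the others, and its Per2 value of 6.56 among their 6.77, 6.73 and 6.32. Its Dbp value of 3.13 lay above their 2.44, 2.27 and 1.83. Nr1d1 was also highest in replicate 3, at 2.905 against at most 2.17 in the others. What sets these libraries apart was not tested. A label or column error in the circRNA table is possible and was not tested either. The NRF values, the 0 rhythm calls under NRF and the ZT12 and ZT16 contrasts rest on these columns being correctly labelled.

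**Figure D4:**
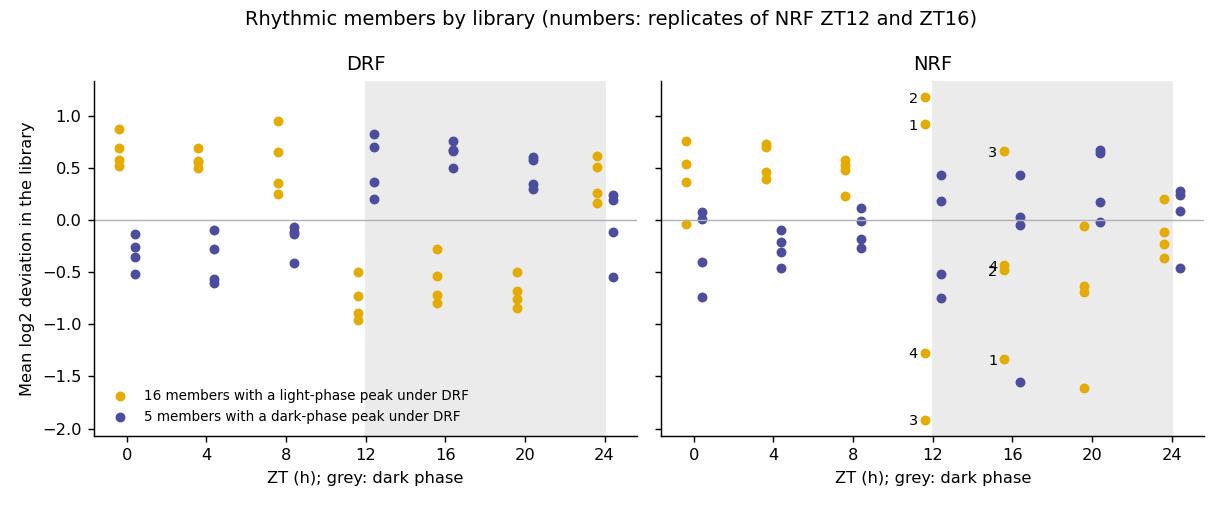
Mean log2 deviation of the 16 members with a light-phase peak under DRF (yellow) and of the 5 with a dark-phase peak under DRF (violet) in each library, by ZT in hours. The left panel is DRF, from which the classes were chosen, and the right panel is NRF. Numbers mark the replicates of NRF ZT12 and ZT16. In the light-phase class the SD within a time was at most 0.31 under DRF, while the NRF ZT12 libraries run from -1.91 to 1.18 (SD 1.55).

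The next question was whether the regimen changed the daily mean of any member. By limma with the rhythm terms in the fit, 1 of 332 members passed, against 1.24% of all circRNAs, and 28 members had an unadjusted p under 0.05, of which 22 were higher under DRF, against 9.37% of all circRNAs in either direction. mmu_circ_0001032 was lower under DRF. It ran from 0 through a median of 688 to 1490 in the 28 DRF libraries and from 463 through 1109 to 4953 in the 28 NRF libraries. The DRF mean was lower at 7 of 7 times, although the ranges overlapped at each of them. On the log2 scale the contrast of DRF with NRF came to -0.80 ± 0.19 (SE), with a limma adjusted p of 0.00814. Its NRF maximum, 4953, was again NRF ZT16 replicate 3, against at most 1015 in the other libraries of that group. Without the libraries with fewer than 6000 junction reads the difference was -0.67 with an adjusted p of 0.0511, and the call was also lost without replicate 1, 2 or 3 (adjusted p between 0.0805 and 0.176).

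mmu_circ_0000847 was next, with a log2 difference of -0.85 ± 0.25 that did not pass (limma adjusted p = 0.069). Its median was 528 under DRF, with a range of 0 to 1683, and 1235 under NRF, with a range of 0 to 2578. The DRF mean was again lower at 7 of 7 times, and the groups were apart at ZT0, with 526 ± 162 against 1577 ± 358 (SD, n = 4), and at ZT4, with 396 ± 73.4 against 1404 ± 661. It passed in 7 of the 22 alternative settings run for it, limma-voom among them (adjusted p = 0.0386). Over all members the median log2 difference was 0.04 and its median SE 0.28, beside a median of 0.05 for all circRNAs tested. The excess of higher members depended on scaling and depth. With median-of-ratios scaling 16 of 32 members at an unadjusted p under 0.05 were higher under DRF and the members' median was -0.02. Without the libraries with fewer than 6000 junction reads 10 of 24 were higher and the median was -0.03.

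The regimens were also compared at each time. Limma called 0 members at every time but ZT16. Of all circRNAs it called 0% at ZT0, ZT8 and ZT20, 0.177% at ZT4 and 0.0884% at both ZT12 and ZT24. Limma-voom also called 0 members at these 6 times. Between 12 and 24 members had an unadjusted p under 0.05 at these times, beside 4.69% of all circRNAs at ZT0 and 6.28% at ZT4. The share of all circRNAs was 5.04% at ZT8 and 7.52% at ZT12, and in the later samples it was 4.77% (ZT20) and 5.39% (ZT24). The joint test over the 7 times called 0 members as well, against 0.354% of all circRNAs, with 24 at an unadjusted p under 0.05 (8.84% of all). Limma-voom called 2 there, and 16 of all 1131 circRNAs. By limma its smallest p-values belonged to mmu_circ_0001058 (adjusted p = 0.125) and mmu_circ_0001032 (adjusted p = 0.163), neither of which passed. The median SE of a member at a single time was 0.72 on the log2 scale. The 2 members with the smallest p-values at each time did not pass: mmu_circ_0000148 (-2.01 ± 0.55) and mmu_circ_0000081 (-1.60 ± 0.48) at ZT0, mmu_circ_0001058 (2.49 ± 0.76) and mmu_circ_0001369 (2.41 ± 0.76) at ZT4, and mmu_circ_0001032 (-1.85 ± 0.49) and mmu_circ_0001097 (-1.92 ± 0.77) at ZT8. The later ones were mmu_circ_0000498 (-2.31 ± 0.77) and mmu_circ_0001038 (2.05 ± 0.71) at ZT12, mmu_circ_0001413 (1.13 ± 0.38) and mmu_circ_0000028 (-1.75 ± 0.62) at ZT20, and mmu_circ_0000870 (2.81 ± 0.87) and mmu_circ_0001705 (-1.21 ± 0.41) at ZT24. Without NRF ZT12 replicates 1 and 2, 8 members passed at ZT12, and 19 of all 1131 circRNAs. The median log2 difference at ZT12 then moved from -0.01 to 0.29 for the members and from 0.03 to 0.27 for all circRNAs.

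ZT16 was the exception, with 2 members called, both higher under DRF, against 0.354% of all circRNAs. mmu_circ_0001148 held 1575, 3147, 2351 and 2354 scaled junction reads under DRF (20, 49, 28 and 36 reads) and 706, 1624, 461 and 1149 under NRF (6, 24, 4 and 12 reads). The lowest DRF library lay below the highest NRF library, and DRF exceeded NRF by 1.29 ± 0.31 (log2, SE; limma adjusted p = 0.0356). mmu_circ_0000547 held 866, 1028, 756 and 1242 under DRF (11, 16, 9 and 19 reads) and was listed at 0 in all 4 NRF libraries, although 20 of the 28 NRF libraries listed it above 0. Its adjusted p was also 0.0356, and no fold is given against a group listed at 0.

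Depth moved with this contrast. The NRF ZT16 libraries held a mean of 7915 junction reads, the fewest of any group, against 12346 at DRF ZT16. The deposited steps make up for differences in junction reads in part. The median log2 difference at ZT16 was 0.32 for the members and 0.41 for all circRNAs, and 36 of the 39 members with an unadjusted p under 0.05 were higher under DRF, beside 12.6% of all circRNAs at that p. The members' median was 0.10 with values per total junction reads, 0.02 with median-of-ratios scaling, -0.04 with log2 junction reads as a covariate and -0.01 without the libraries with fewer than 6000 reads. Of the members with an unadjusted p under 0.05, 21 of 31, 21 of 34, 14 of 28 and 8 of 11 were then higher under DRF. By limma on values per total junction reads the median of all circRNAs was 0.23, mmu_circ_0001148 had a difference of 1.02 (adjusted p = 0.187) and mmu_circ_0000547 an adjusted p of 0.0502, so that neither was called. With log2 junction reads as a covariate in limma neither was called (adjusted p = 0.202 for both), and without the libraries with fewer than 6000 reads mmu_circ_0001148 was at 0.71 (limma adjusted p = 0.924). Without NRF ZT16 replicate 3 alone the adjusted p was 0.367 for mmu_circ_0001148 and 0.165 for mmu_circ_0000547 by limma. Leaving out replicate 1 in every group left 1 member called, and 1 of all 1131 circRNAs. Leaving out replicate 2, 3 or 4 left 0 members and 0 of all circRNAs.

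**Figure D5:**
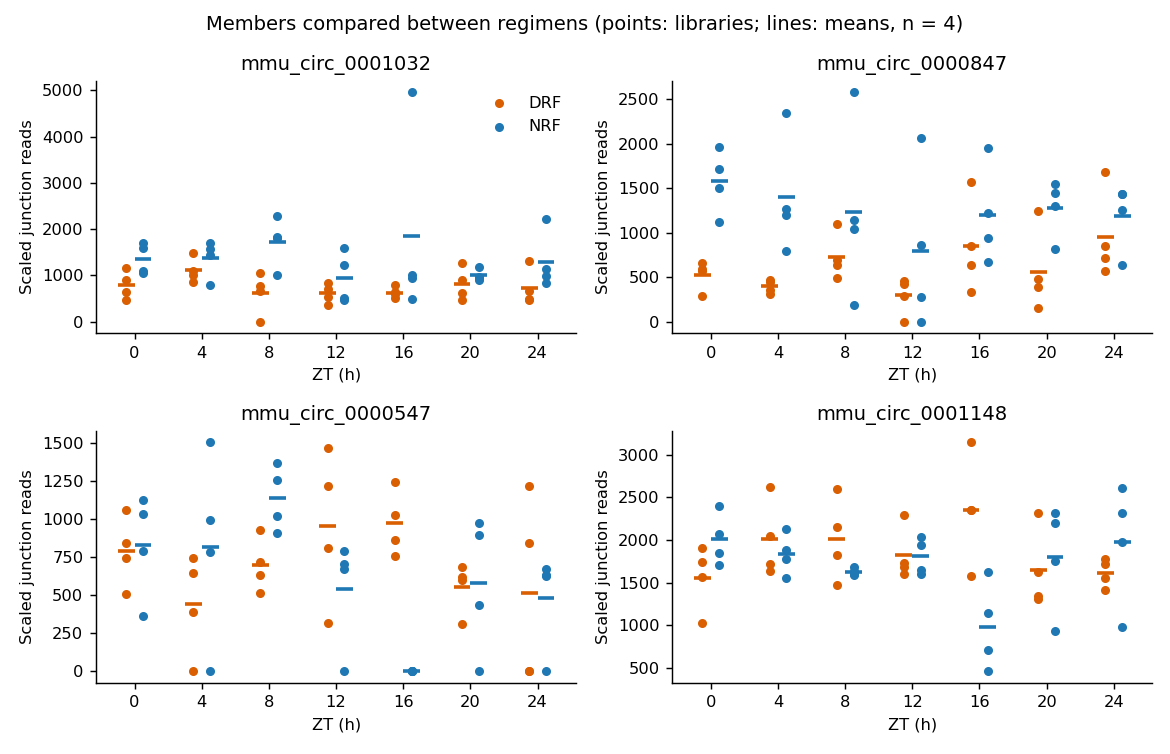
Scaled junction reads by ZT in hours of the members with the smallest p for the daily mean (upper row) and of those called at ZT16 (lower row), in DRF (orange) and NRF (blue). Points are libraries and lines are means of 4. mmu_circ_0001032 and mmu_circ_0000847 had lower DRF means at all 7 times, and mmu_circ_0000547 was at 0 in all 4 NRF libraries of ZT16.

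Catalogued circRNAs took 33.9% ± 1.03 of the back-splice junction reads under DRF and 34.2% ± 1.39 under NRF (SD, n = 28, all 504 catalogued circRNAs), with ranges of 31.8% to 35.5% and 31.3% to 37.5%. The difference of -0.25 percentage points was smaller than the spread between libraries. The summed value of the 332 members was lowest at NRF ZT16, at 236276 ± 37990 (SD, n = 4), and highest at NRF ZT8, at 300833 ± 23881, and it was 255649 ± 27188 at DRF ZT12.

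The genes of factors known to act on circRNAs were read from the gene table to show what moved beside the members. Of 37 factors listed, 34 were tested. Under DRF 21 of the 34 were rhythmic by limma (58.2% of all genes) and under NRF 21 (56.4% of all genes), while 22 had a different rhythm between the regimens (57.4% of all genes), shares near those of all genes. Sfpq, a paraspeckle protein, had its DRF peak at 6.58 h and its NRF peak at 18.8 h, and Srsf3, a splicing factor, at 5.72 h and 20.8 h. Upf1, the nonsense-mediated decay helicase, had them at 5.26 h and 17.8 h. The peaks of Adar, which edits adenosine in RNA duplexes, were at 2.18 h and 2.70 h (limma adjusted p = 0.93 for the difference in rhythm). In the daily mean 2 of the 34 passed (11.5% of all genes): Adar was lower under DRF, at -0.16 ± 0.04 on the log2 scale (SE, limma adjusted p = 0.00349), and Rida, known as an endoribonuclease adaptor of m6A-marked RNA, was higher at 0.13 ± 0.04 (limma adjusted p = 0.0241).

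Markers of other cells were checked in the same table. All 8 hepatocyte markers were measured in every library, and Alb had a median of 87870 scaled counts. The summed markers of Kupffer, sinusoidal endothelial, stellate and cholangiocyte cells overlapped between regimens, and 0 of their tested members passed for the daily mean. Kupffer markers, for example, ran from 525 to 916 scaled counts under DRF and from 507 to 1204 under NRF. Lymphocyte markers summed to at most 4.18 and the 1 pancreas marker matched to at most 0.77 scaled counts. Of the hepatocyte markers 4 passed, 2 in each direction. The 5 erythroid markers were all higher under DRF, with sums of 567 to 2039 (median 1103) against 469 to 1351 (median 740). The part of these markers in the differences of daily mean was not tested.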

How the data were processed

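Liver RNA of 56 mice was ribo-depleted and sequenced strand-specifically; the label's molecule field reads polyA RNA. Per the labels, the submitters' processing notes name CASAVA 1.8, featureCounts 1.5.0-p3, mm10 and GRCm38.p6, and the circRNA caller is not given in the sources used here. The circRNA values were deposited by the authors as log2(1 + scaled junction reads), in whole multiples of 1 step per library (tolerance 0.05), and 2 reads was the lowest value listed. The log of the step followed the log of junction reads with a slope of -0.63, so differences in junction reads are corrected in part. Depth here means junction reads, and whether the steps correct the full sequencing depth was not tested. The gene table, which the authors deposited as a score, holds length-divided natural logs of scaled counts. These were rebuilt for 23784 genes, and 13432 with a scaled count of at least 1 in 28 libraries were tested on log2(scaled count + 1). With the scaling removed Alb had a median of 44329600 counts, too many to be reads, so gene values are given as scaled counts alone.

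circRNAs were tested with limma 3.58.1 (trend, robust) in R 4.3.3 on log2(value + 76.2), the pseudocount being the median step, so that changes of low circRNAs are understated. Cosine terms of 24 h gave rhythms, and p-values were adjusted by Benjamini-Hochberg over the 1131 circRNAs above 0 in at least 28 libraries. Each mouse was 1 replicate. The members and gene lists were chosen with earlier results of these data known. Named members were the 10 highest, the 6 smallest adjusted p-values of each rhythm test, up to 4 in each direction for the daily mean, 3 for each time, the 2 smallest p-values where fewer than 2 passed, and those beside the detection limit; others were named after their values were seen. The 28 values scaled a second time in NRF ZT8 replicate 4 were divided by their factor. The fit was also run on simulated reads with 1 common spread and with depth set by the library steps. The simulation held no leftover depth, isolated zeros or deviant libraries, and no result here rests on it. Comparisons with host genes, junction sequences and the planned permutation test of the catalogued share were not run, and the transcript table was not used. Up to 24 alternatives were tried for each result, 7 of them chosen after seeing the data.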

Additional observations from a re-analysis of the deposited data

Results flagged for a closer look

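For the named members that passed a test, and for junction reads, catalogued share and members above 0, 167 groups of 4 libraries were checked. By chance about 1 in 20 groups is flagged by Dixon's criterion at the 95% level. Here 10 had 1 library far from the rest, all of them in named members. NRF ZT16 replicate 3 was the high library in 3 of them: mmu_circ_0001516 at 5529 scaled junction reads (others 235 to 574), mmu_circ_0001774 at 1382 (others 191 to 271) and mmu_circ_0001032 at 4953 (others 479 to 1015). mmu_circ_0001822 was low in DRF ZT8 replicate 1 at 6945 (others 7899 to 8079) and in NRF ZT20 replicate 1 at 10077 (others 13135 to 13493). mmu_circ_0000057 was high in DRF ZT24 replicate 2 at 7526 (others 5815 to 5983) and in NRF ZT0 replicate 4 at 7033 (others 5358 to 5596). mmu_circ_0001774 was at 214 in DRF ZT12 replicate 1 and at 0 in the other libraries of that group. mmu_circ_0000547 was listed at 0 in NRF ZT12 replicate 4 (others 674 to 790) and at 0 in NRF ZT24 replicate 1 (others 626 to 674).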

How the results depend on the processing

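Counts of members called are given here under 24 alternatives for each rhythm test and the rhythm difference, 23 for the daily mean and 20 for the joint test and each time. Those using the junction reads as a covariate, detection in every library, depth above 6000 reads, the isolated zeros as missing, or leaving out ZT12, NRF ZT12 replicates 1 and 2 or NRF ZT16 replicate 3 were chosen after seeing the data. The DRF rhythm called 21 members, 12 with detection in every library and 14 to 27 under the others. It called 15 to 19 when 1 replicate number was left out. Settings that changed NRF libraries alone had to return the 21, because this rhythm was fitted on DRF libraries alone. Detection in every library left 67 members to test in each result, and the main fit called 9 of them for the DRF rhythm. The NRF rhythm called 0, but 1 by limma-voom on recovered reads, 5 with no filter, 3 without NRF ZT12 replicates 1 and 2, 6 without ZT12, and 0 to 5 when replicates were left out. Over all circRNAs tested, 7 of 1131, 21 of 2352, 17 of 1131 and 15 of 1131 passed in the first 4 of these settings. The rhythm difference called 0 to 1 when replicates were left out. The daily mean called 1, but 0 with pseudocount 1, without ZT0 or without libraries under 6000 junction reads, and 2 by limma-voom, with no filter, with at least 42 libraries, with the replicate block, with the covariate, with detection in every library or without ZT12, and 0 to 1 when replicates were left out. The joint test over times called 0, but 2 by limma-voom, 3 with no filter, 2 without NRF ZT12 replicates 1 and 2, and 0 to 1 when replicates were left out. Over all circRNAs tested, 16 of 1131, 11 of 2352 and 15 of 1131 passed it in the first 3 of these settings. ZT12 called 0, but 8 without NRF ZT12 replicates 1 and 2, where 19 of all 1131 circRNAs passed. ZT16 called 2, but 3 with detection in every library, 4 with pseudocount 1 or at least 42 libraries, and 1 by limma-voom. It called 0 per total junction reads, with median-of-ratios scaling, with the covariate, without libraries under 6000 reads or without NRF ZT16 replicate 3. Leaving out replicate 1 in every group gave 1, and leaving out replicate 2, 3 or 4 gave 0. The causes of these moves were not tested. The medians over members did turn sign. The daily mean median went from 0.04 to -0.02 with median-of-ratios scaling and to -0.03 without libraries under 6000 reads, and the ZT16 median from 0.32 to -0.04 with the covariate and to -0.01 without those libraries. No called member turned its direction, and the difference in catalogued share stayed between -0.67 and -0.03 points.

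Replicate numbers did not pair the mice: deviations of the 28 same-number pairs at 1 time correlated between -0.12 and 0.12, with 1 over 0.1. The replicate block took the daily mean count from 1 to 2 and left the other counts as they were. Depth limits the rarer members, with a median of 5.70 reads per library, and a listed 0 can hide 1 read or more. Without host genes, circRNA and gene changes could not be set against each other.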
